A study of Mus musculus with 6 samples.

Results

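The genes described here encode the machinery that docks, primes and fuses synaptic vesicles: the synaptotagmins, synapsins, synaptophysin, SV2 proteins, syntaxins, VAMPs, SNAP25, syntaxin binding proteins, complexins, UNC13, RIM and RAB3 proteins, bassoon and piccolo. They were chosen by gene symbol alone, with no measured value in the rule, and 71 of the 16060 rows of the expression table carried such a symbol. A filter on low values left 67 of these 71 among the 13321 genes tested. The 4 that failed it were Syt15, Stx11, Stx19 and Cplx4, whose log2 values lay between 0.00 and 0.63 in all 6 libraries.

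The study sequenced RNA of the hippocampus (HIPP) of C57BL/6 mice to profile the gene expression that accompanied anxiety-like behavior after chronic methamphetamine (MA), a stimulant that releases monoamines. Adult male mice were injected for 3 weeks with saline (Control) or with MA, whose dose was 5 mg/kg at first, then 10 and in the last week 15 mg/kg, and HIPP was taken after behavioral tests on day 22. There were 3 libraries labelled Control and 3 labelled MA, 1 for each mouse, with no genetic change in either group. The labels called the tissue hippocampus and nothing finer, so each value averages over neurons, glia and any adjoining tissue.

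At a nerve terminal, a vesicle is brought to the active zone by RAB3, RIM, bassoon and piccolo, and UNC13 proteins prime it. VAMP2 on the vesicle then winds into a bundle with a syntaxin and SNAP25 on the plasma membrane, held by complexin until calcium binds a synaptotagmin. Other syntaxins, VAMPs and synaptotagmins serve traffic in the Golgi apparatus, endosomes and non-neuronal cells, so the symbols cover more than the synapse.

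The libraries were not alike. All 6 shared the same highest value, 12.30, but MA replicate 3 listed no gene at 0 where the other libraries listed 259 to 437, and its mean correlation with the other MA libraries was 0.978 against 0.984 to 0.993 for the rest within their groups. Depth is unknown, since the table holds no read counts. Across all tested genes, the deviation of MA replicate 3 from the Control mean went from a median of 0.10 in the quintile of genes with the shortest exonic length to -0.14 in the quintile with the longest. In MA replicates 1 and 2 the same medians went from -0.07 to 0.04 and from -0.07 to 0.05. Counts of genes that passed a test, and many of the fold changes that MA replicate 3 moved, are therefore given with and without it. The columns were assigned to the groups as labelled, and the direction of the labels was not checked against the values. The study reports genes higher in MA, such as Fos and Arc, but they were not used for such a check.

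No release machinery gene differed between MA and Control at an adjusted p-value under 0.05 in limma, a linear model test over all genes, where 0.263% of all tested genes did. At an unadjusted p under 0.05 there were 4 genes higher in MA (5.97% of 67, against 4.99% of all tested genes) and 1 lower (1.49%, against 5.46%). The median log2 fold change of the 67 genes was 0.04, against -0.01 over all tested genes, and single genes ranged from -0.31 to 0.94. The log2 fold change was above 0 in 41 of the 67 genes (61.2%, against 47.3% of all tested genes). In 4 genes every MA library lay above every Control library (Stxbp4, Syt17, Unc13b and Vamp8; 5.97%, against 7.32% of all tested genes), and in 2 every MA library lay below (Stx7 and Vamp3; 2.99%, against 10.2%). Neither share was above its background. An exact permutation test over 3 against 3 libraries cannot give a p below 0.10, which is the value it gave for each of these 6 genes. The plot of log2 fold changes shows 65 of the 67 genes by role.

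**Figure D1:**
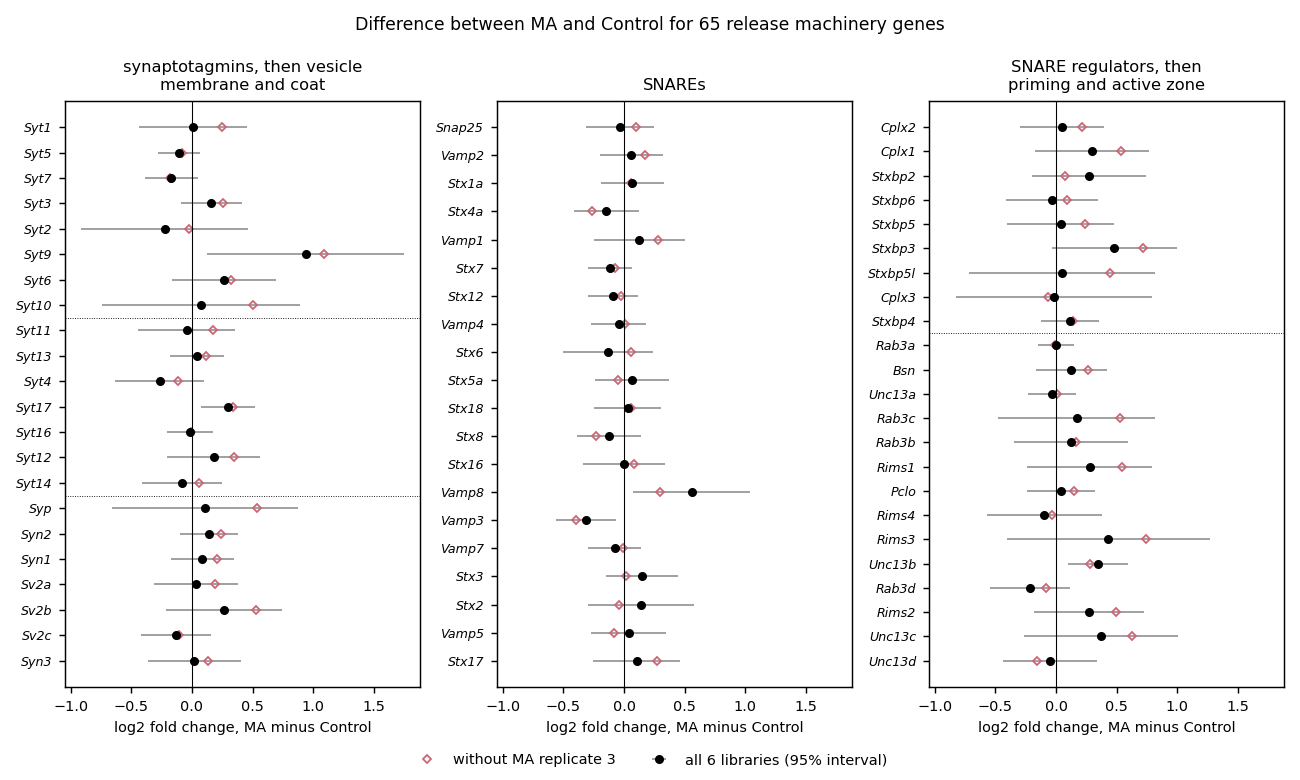
Log2 fold change (MA minus Control, x axis) of 65 of the 67 tested genes, 1 row each, ordered within each role by mean level, with roles separated by dotted lines. Filled points and grey bars give the limma estimate and its 95% interval from all 6 libraries, and open diamonds the estimate without MA replicate 3. The intervals of 5 genes lie clear of 0 (Syt9, Syt17, Vamp3, Vamp8 and Unc13b), and for Syp the estimate moved from 0.11 to 0.54 when MA replicate 3 was left out.

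The promoter windows of 54 of the 71 genes were found among RefSeq sequences (GRCm38.p6, 250 bases before to 50 after the start of each gene). They were searched on both strands for TGACGTCA, the full cyclic AMP response element bound by CREB, since CREB-driven transcription is a classical response of neurons to activity. It stood in 2 of 68 windows (2.94%, against 1.79% of all 32851 windows), those of Stxbp3 and Syn1, whose values in the 6 libraries follow below. Both stretches are shown 5′ to 3′ on the minus strand, with the element in capitals; it starts 108 bases before the start of Stxbp3 (chr3:108840577-108840636) and 159 before that of Syn1 (chrX:20921044-20921103).
Stxbp3: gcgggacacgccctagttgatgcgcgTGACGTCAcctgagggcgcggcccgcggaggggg
Syn1: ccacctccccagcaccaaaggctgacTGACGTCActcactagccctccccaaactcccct
The shorter element TGACG, which is part of the full one, stood in 25% of the windows of these genes against 20.8% of all windows. The EGR element GCGTGGGCG stood in 1 window, that of Unc13a (1.47%, against 0.612%), and the AP-1 element TGANTCA in 2, those of Syt2 and Syt6 (2.94%, against 7.81%). A match is a description of the letters in the window and not a binding site.

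Among the 8 calcium-binding synaptotagmins, Syt1, the fast sensor for synchronous release, was the most abundant. It measured 7.87, 7.83 and 8.01 (log2 values, replicates 1 to 3) in Control and 8.18, 8.13 and 7.43 in MA. MA replicates 1 and 2 lay above every Control library and MA replicate 3 below all of them. The log2 fold change was 0.01 ± 0.19 (SE, limma adjusted p = 0.994), and 0.25 without MA replicate 3. Syt7, the sensor linked to asynchronous release and facilitation, measured 5.70 ± 0.09 in Control and 5.53 ± 0.12 in MA (SD, n = 3), a difference that did not pass the test. Syt2, which takes the place of Syt1 in many hindbrain and some inhibitory terminals, ranged from 1.75 to 2.76 in Control and from 1.71 to 2.52 in MA. Its log2 fold change was -0.23, and -0.02 without MA replicate 3.

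Syt9, another calcium sensor for release in a subset of neurons, showed the largest log2 fold change of the 67 genes, 0.94 ± 0.35 (SE), with an unadjusted p of 0.0293 and an adjusted p of 0.417 in limma. Its values were 1.20, 0.98 and 2.36 in Control and 2.61, 2.59 and 2.14 in MA. The groups overlapped, because Control replicate 3 lay above MA replicate 3. Leaving out 1 library at a time gave log2 fold changes from 0.67 to 1.36. The gene (ENSMUSG00000062542) lies at chr7:107370728-107548656 (GRCm38, plus strand). Syt10, known from neurons of the olfactory bulb, was the least abundant of these sensors, with values of 1.08 to 1.67 in Control and 0.58 to 1.87 in MA.

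The synaptotagmins that do not bind calcium in the same way were led by Syt11, a protein of vesicle recycling, at 7.32, 7.32 and 7.38 in Control and 7.54, 7.48 and 6.87 in MA. MA replicate 3 lay below every Control library and the other MA libraries lay above all of them. Syt17, a synaptotagmin-like protein of the Golgi apparatus and endosomes, was the member of this class that passed an unadjusted test. It measured 4.55, 4.39 and 4.51 in Control and 4.74, 4.91 and 4.69 in MA, so every MA library was above every Control library. The log2 fold change was 0.30 ± 0.09 (SE), with an unadjusted p of 0.0153 and an adjusted p of 0.350 in limma. Syt17 (ENSMUSG00000058420) lies on the minus strand at chr7:118380717-118448222 (GRCm38). Syt4, an activity-regulated synaptotagmin, had the lowest log2 fold change of the class, -0.27 ± 0.16 (SE, limma unadjusted p = 0.128; -0.12 without MA replicate 3 and -0.16 without Control replicate 3), and Syt14 the lowest level of its tested genes, 1.67 ± 0.09 in Control and 1.59 ± 0.24 in MA (SD, n = 3).

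The vesicle membrane and coat proteins were led by Syp, the classical synaptophysin marker of small vesicles. Syp measured 9.89, 9.78 and 10.05 in Control and 10.52, 10.37 and 9.16 in MA. The MA libraries lay on both sides of Control, and the log2 fold change was 0.11 ± 0.33 (SE, limma adjusted p = 0.944). Sv2b, a transporter-like vesicle glycoprotein, had 5.61, 5.64 and 5.70 in Control and 6.14, 6.21 and 5.39 in MA. Its isoform Sv2a, the binding site of the antiepileptic levetiracetam, spanned 6.17 to 6.44 in Control and 6.03 to 6.59 in MA.
The synapsins tether vesicles in the reserve pool. Syn1 measured 6.96, 6.94 and 7.03 in Control and 7.20, 7.16 and 6.83 in MA, again with MA replicates 1 and 2 above and MA replicate 3 below Control, and a log2 fold change of 0.09 ± 0.11 (SE, limma adjusted p = 0.846), which was 0.20 without MA replicate 3. Syn3, the synapsin of developing neurons, was the least abundant of the class at 1.25 ± 0.24 in Control and 1.27 ± 0.21 in MA (SD, n = 3).

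Of the SNAREs that drive fusion at the synapse, Snap25, Vamp2 and Stx1a did not pass the test. Snap25, the most abundant gene of all 71, measured 10.08, 10.05 and 10.20 in Control and 10.20, 10.22 and 9.81 in MA. Its log2 fold change was -0.03 ± 0.12 (SE, limma adjusted p = 0.954), with a 95% interval from -0.31 to 0.25. Vamp2, its partner on the vesicle, measured 8.89, 8.92 and 9.06 in Control and 9.12, 9.15 and 8.79 in MA. In both genes MA replicate 3 was the lowest of the 6 libraries. Stx1a, the neuronal syntaxin of the plasma membrane, spanned 5.60 to 5.97 in Control and 5.89 to 5.93 in MA, so that its MA libraries fell inside the Control range.

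The 2 SNAREs past the unadjusted threshold belong to endosomal and exocytic traffic shared by many cell types. Vamp3, cellubrevin, measured 4.02, 4.06 and 3.93 in Control and 3.56, 3.65 and 3.86 in MA. Every MA library was below every Control library, with a log2 fold change of -0.31 ± 0.10 (SE), an unadjusted p of 0.0191 and an adjusted p of 0.369 in limma. The gene (ENSMUSG00000028955), at chr4:151047300-151057963 on the minus strand (GRCm38), overlaps Camta1 on the same strand, so its reads may be shared. Vamp8, the endobrevin of endosomes, lysosomes and secretory cells, measured 4.19, 4.21 and 4.03 in Control and 4.46, 4.43 and 5.21 in MA. All MA libraries were above Control, and MA replicate 3 stood furthest from it. The log2 fold change was 0.56 ± 0.21 (SE), with an unadjusted p of 0.0290 and an adjusted p of 0.417 in limma, and it fell to 0.30 without MA replicate 3. Vamp8 (ENSMUSG00000050732) lies at chr6:72385223-72390703 on the minus strand (GRCm38). Stx7, an endosomal syntaxin named after its values were seen because its groups did not overlap, measured 5.45, 5.45 and 5.47 in Control and 5.40, 5.38 and 5.24 in MA. Its log2 fold change was -0.12 ± 0.08 (SE, limma unadjusted p = 0.165 and adjusted p = 0.658). Stx17, the syntaxin of autophagosomes, was the least abundant tested SNARE, at 2.28 ± 0.03 in Control and 2.38 ± 0.30 in MA (SD, n = 3).

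The SNARE regulators include the complexins, which clamp and then assist fusion, and the syntaxin binding proteins. Cplx1 measured 7.57, 7.70 and 7.92 in Control and 8.34, 8.19 and 7.55 in MA, a log2 fold change of 0.30 ± 0.20 (SE, limma adjusted p = 0.678). Without MA replicate 3 it was 0.53, and without MA replicate 1 it was 0.14. Cplx2, the more abundant complexin in HIPP, measured 8.17, 8.05 and 8.24 in Control and 8.29, 8.45 and 7.86 in MA. Both complexins had MA replicates 1 and 2 above and MA replicate 3 below every Control library.
Stxbp3, a syntaxin binding protein of non-neuronal and constitutive exocytosis, measured 2.87, 3.20 and 3.26 in Control and 3.97, 3.69 and 3.11 in MA. MA replicates 1 and 2 were above every Control library while MA replicate 3 fell within the Control range, and the log2 fold change was 0.48 ± 0.22 (SE, limma unadjusted p = 0.0639 and adjusted p = 0.510). It was 0.72 without MA replicate 3 and 0.29 without MA replicate 1. Stxbp4, a binder of syntaxin 4 in insulin-responsive cells, had the lowest tested level of the class, 1.68 ± 0.07 in Control and 1.80 ± 0.08 in MA (SD, n = 3), without overlap between the groups. Its log2 fold change was 0.12 ± 0.10 (SE, limma unadjusted p = 0.294 and adjusted p = 0.751).

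Of the priming and active zone genes, Unc13b, or Munc13-2, which primes vesicles at a subset of hippocampal synapses, had the smallest unadjusted p of the 67 genes. It measured 2.92, 2.72 and 2.77 in Control and 3.08, 3.08 and 3.28 in MA. Every MA library was above every Control library, by a log2 fold change of 0.35 ± 0.11 (SE), with an unadjusted p of 0.0127 and an adjusted p of 0.337 in limma. Leaving out 1 library at a time gave 0.28 to 0.40. The gene (ENSMUSG00000028456) lies on the plus strand at chr4:43058953-43264871 (GRCm38), where small noncoding genes are annotated on the other strand. Unc13a, or Munc13-1, the main priming factor of these synapses, measured 5.24, 5.14 and 5.08 in Control and 5.13, 5.18 and 5.04 in MA, so the groups were intermixed. Unc13d, the form known from immune and secretory cells, was the least abundant of the class at 1.11 ± 0.26 in Control and 1.06 ± 0.19 in MA (SD, n = 3).
Rab3a, a vesicle GTPase that recruits RIM, was the most abundant of the class and its groups were intermixed. It measured 8.96, 9.02 and 9.01 in Control and 8.98, 8.99 and 9.01 in MA, with a log2 fold change of -0.00 ± 0.06 (SE) and a 95% interval from -0.15 to 0.15. Rims1, the scaffold that links RAB3 to calcium channels, measured 4.60, 4.36 and 4.63 in Control and 5.01, 5.13 and 4.27 in MA. Its log2 fold change was 0.28 with all libraries, 0.54 without MA replicate 3 and 0.11 without MA replicate 2. The giant active zone scaffolds did not pass the test, with Bsn at 5.16 ± 0.05 in Control and 5.29 ± 0.24 in MA and Pclo at 4.12 ± 0.11 and 4.16 ± 0.19 (SD, n = 3).

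**Figure D2:**
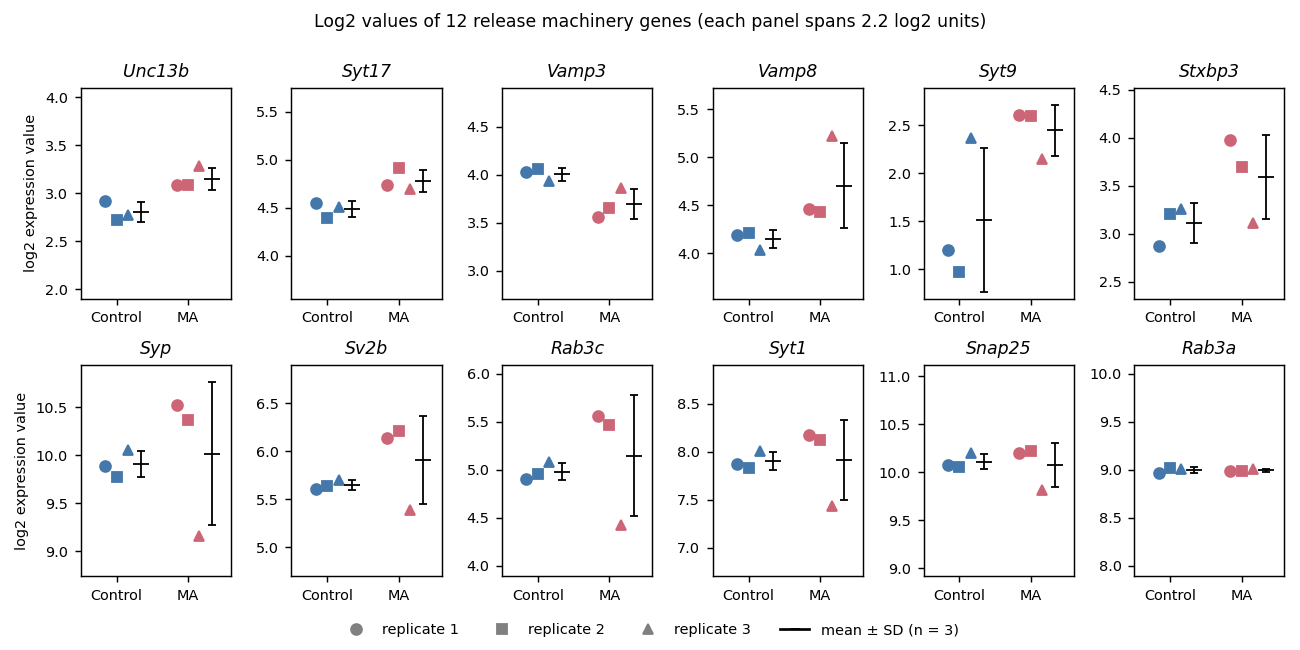
Log2 expression values (y axis) of 12 genes in the 3 Control (blue) and 3 MA (red) libraries, with circles, squares and triangles for replicates 1, 2 and 3, and the mean ± SD in black. Every panel spans the same number of log2 units. In Unc13b, Syt17 and Vamp8 the MA points sit above the Control points and in Vamp3 below, whereas in Syp, Sv2b, Rab3c and Syt1 the MA points of replicates 1 and 2 sit above Control and that of replicate 3 below it.

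The pattern that recurred across the list was a split among the MA libraries. MA replicates 1 and 2 lay above every Control library and MA replicate 3 below every Control library in 17 of the 67 genes (25.4%, against 8.82% of all tested genes). These were Bsn, Cplx1, Cplx2, Rab3c, Rims1, Rims2, Stx17, Stxbp5l, Sv2b, Syn1, Syn2, Syp, Syt1, Syt10, Syt11, Syt12 and Vamp2. MA replicates 1 and 2 lay above every Control library in 26 genes, wherever MA replicate 3 lay (38.8%, against 20.8%), and MA replicate 3 lay below every Control library in 39 (58.2%, against 38.3%). The opposite split was seen in 2 genes, Stx4a and Stx8 (2.99%, against 6.2%), which encode syntaxins of the plasma membrane outside the synapse and of late endosomes. MA replicate 3 gave the lowest of the 6 values in 36 genes (53.7%, against 29.8%), and it gave the highest in 9 (13.4%, against 25.6%). Those 9 were Stx2, Stx3, Stx4a, Stx5a, Stx8, Stxbp2, Unc13b, Vamp5 and Vamp8. These patterns were chosen for description after the values were seen. The median deviation of the 67 genes from the Control mean was 0.15 in MA replicate 1, 0.11 in MA replicate 2 and -0.17 in MA replicate 3, while over all tested genes it was -0.01, -0.01 and -0.02.

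**Figure D3:**
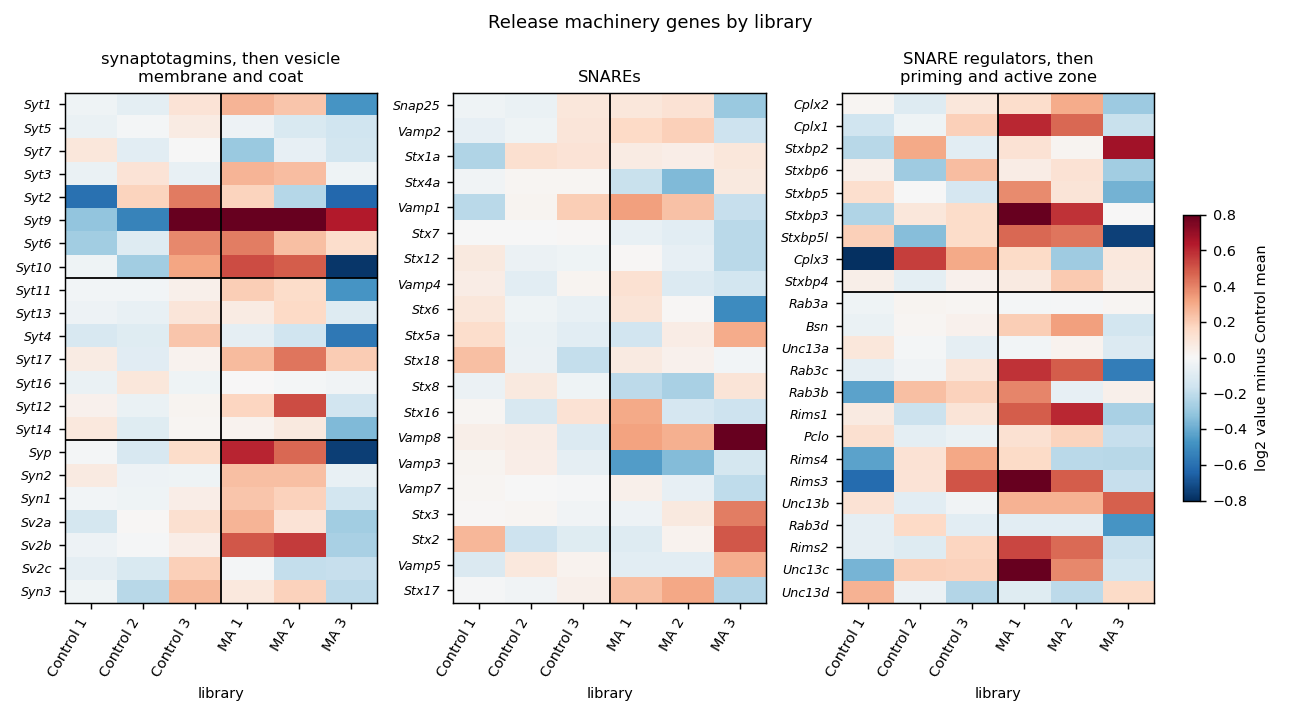
Log2 value minus the mean of the 3 Control libraries (color, red above and blue below 0) for 65 of the 67 tested genes (rows, by role and then by mean level) in the 6 libraries (columns, with a line between Control and MA). Colors saturate at the ends of the scale. Many rows are red in MA replicates 1 and 2 and blue in MA replicate 3, as in the 17 genes split in this way.

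By role, the split took 2 of the 8 calcium-binding synaptotagmins (25%), 2 of the 7 other tested synaptotagmins (28.6%), 4 of the 7 vesicle membrane and coat genes (57.1%), 2 of the 21 tested SNAREs (9.52%), 3 of the 10 tested SNARE regulators (30%) and 4 of the 14 priming and active zone genes (28.6%). The share of the SNAREs was near the 8.82% of all tested genes, and the classes were not tested against each other. The median log2 fold changes of these classes were 0.04, -0.01, 0.09, -0.00, 0.05 and 0.12 in the same order. Single genes ranged from -0.23 to 0.94 among the calcium-binding synaptotagmins and from -0.27 to 0.30 among the other synaptotagmins. The vesicle membrane and coat genes ranged from -0.13 to 0.26, the SNAREs from -0.31 to 0.56, the SNARE regulators from -0.04 to 0.48 and the priming and active zone genes from -0.21 to 0.43. The upper end of the last class was Rims3, a short RIM without the RAB3-binding part, at 0.74 without MA replicate 3. It spread from 2.18 to 3.30 in Control and from 2.61 to 3.79 in MA, so that its groups overlapped. The SD of the MA libraries exceeded that of Control in 52 of the 67 genes (77.6%, against 71.1% of all tested genes). The median SD of the 67 genes was 0.10 in Control and 0.23 in MA, where all tested genes had medians of 0.10 and 0.17.

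Without MA replicate 3, 3 genes passed an adjusted p of 0.05 in limma (4.48%, against 1.93% of all tested genes): Sv2b, Rab3c and Syp. Sv2b had a log2 fold change of 0.53 ± 0.06 (SE, limma adjusted p = 0.0274), Rab3c, the neuronal RAB3 relative of Rab3a, 0.53 ± 0.08 (limma adjusted p = 0.0346), and Syp 0.54 ± 0.09 (limma adjusted p = 0.0477). Sv2b and Rab3c were named after their values were seen. Over the alternatives tried, the adjusted p ranged up to 0.941 for Sv2b, 0.997 for Rab3c and 0.998 for Syp in limma, and with all 6 libraries it was 0.719, 0.889 and 0.944. At an unadjusted p under 0.05, 24 genes were higher without MA replicate 3 (35.8%, against 11.9%) and 3 lower (4.48%, against 11.4%), the 3 being Stx4a, Stx8 and Vamp3. All 24 were among the 26 genes in which MA replicates 1 and 2 lay above every Control library. The count thus largely restates that pattern and is no separate result. With all 6 libraries weighted by quality, as estimated in limma, MA replicate 3 had the lowest weight, 0.194, and 3 genes passed an adjusted p of 0.05 (4.48%, against 4.4%), namely Sv2b, Syt17 and Vamp3. At an unadjusted p under 0.05, 19 were then higher (28.4%, against 12.9%) and 3 lower (4.48%, against 13.4%). With the replicate number as a block, no gene passed an adjusted p of 0.05 (0.113% of all tested genes did), 3 were higher (4.48%, against 3.53%) and 0 lower (against 2.79%).

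Since deviations differed with exonic length over all genes, the lengths of the release machinery genes were set beside this split. The 66 genes with an annotated length had a median exonic length of 5208 bases, against 4504 over all tested genes, and 19 of them fell in the longest quintile. There their median deviation was 0.27, 0.22 and -0.18 in MA replicates 1, 2 and 3, where all genes of the quintile had 0.04, 0.05 and -0.14. In the shortest quintile, with 6 of the genes, the medians were 0.15, 0.14 and -0.07, where all genes had -0.07, -0.07 and 0.10. From the shortest to the longest quintile, with 6, 9, 20, 12 and 19 of the genes, their medians in MA replicate 3 were -0.07, -0.03, -0.22, -0.10 and -0.18. In MA replicate 1 they were 0.153, 0.0665, 0.145, 0.177 and 0.273. In MA replicate 2 they were 0.138, -0.0626, 0.0707, 0.176 and 0.224. The part of length in the split was not tested, and the split was not recounted after a correction. After each library was corrected for exonic length and GC content, an alternative chosen after seeing the data, no gene passed an adjusted p of 0.05 (0.233% of all tested genes did), 5 were higher at an unadjusted p under 0.05 (7.58%, against 5.78%) and 1 was lower (1.52%, against 5.43%). The correction together with leaving out MA replicate 3 kept Sv2b and Rab3c under an adjusted p of 0.05 in limma, at 0.0310 and 0.0410, where 1.78% of all genes passed. With it, the same 24 genes were higher at an unadjusted p under 0.05 (36.4%, against 12.4%) and the same 3 lower (4.55%, against 10.4%).

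Markers of other cell types also differed between the libraries. The summed level (back-transformed values) of 8 choroid plexus markers, led by Ttr, ranged from 65.9 to 421 in Control and from 1779 to 5082 in MA. All 8 were higher in MA at an unadjusted p under 0.05 in limma, 5 of them at an adjusted one. Without MA replicate 3, all 8 again passed the unadjusted threshold and 7 the adjusted one. The sum of 8 thalamic markers was 26.1, 31.1 and 54.1 in Control and 103, 90.9 and 52.2 in MA, so MA replicates 1 and 2 were above every Control library and MA replicate 3 was not. The sum of 10 hippocampal neuron markers ranged from 367 to 435 in Control and from 333 to 363 in MA. With all libraries, all 10 log2 fold changes were negative and 3 were past an unadjusted p of 0.05 in limma. Without MA replicate 3, 5 were lower at that threshold, but Zbtb20 and Rbfox3 were above 0, at 0.15 and 0.08. Sums of 5 red blood cell genes spanned 1599 to 2024 in Control and 3319 to 4378 in MA, and 6 astrocyte markers 461 to 503 in Control and 341 to 553 in MA, with the low end in MA replicate 3. Lists for inhibitory neurons, oligodendrocytes, microglia and endothelium were also read, with median log2 fold changes of -0.10, -0.13, -0.12 and 0.14. In the same order, 12.5%, 0%, 33.3% and 40% of their markers had the split, against 8.82% of all tested genes. Of the lists read by their sums, the split took 25% of the thalamic and 33.3% of the astrocyte markers. It took 0% of the choroid plexus, hippocampal neuron and red blood cell markers. No marker of these lists was at 0 in any library. Their part in the values of Syt9, Syp, Sv2b, Rab3c or any other gene above was not tested, and in bulk tissue fewer cells of a type and less RNA per cell cannot be told apart.

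**Figure D4:**
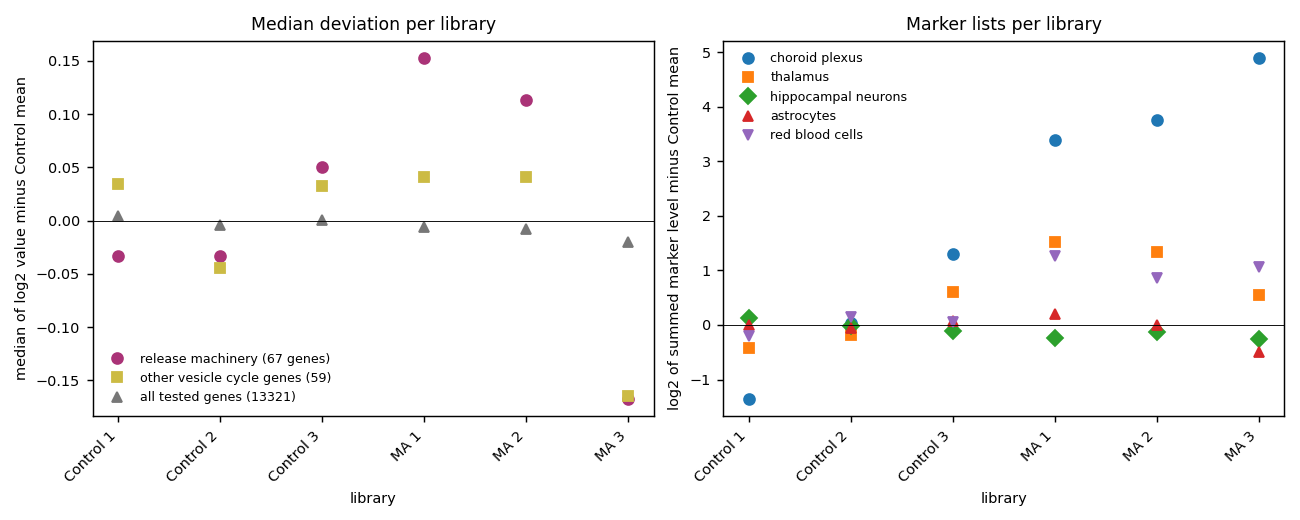
Left, the median over genes of the log2 value minus the Control mean (y axis) in each library (x axis) for the 67 release machinery genes, 59 other genes of the vesicle cycle and all 13321 tested genes. Right, the log2 of the summed marker level minus its Control mean for 5 marker lists. The release machinery median is 0.15 and 0.11 in MA replicates 1 and 2 and -0.17 in MA replicate 3. The choroid plexus sum, led by Ttr, is highest in MA replicate 3. There Ttr has the highest value that every library shares, 12.30. Kcnj13, Cldn2, Otx2 and Aqp1 were also highest in that library, but Folr1, Kl and Clic6 were highest in MA replicate 2.

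Other genes of the vesicle cycle, outside the list, were read beside it: 59 of 60 were tested, covering SNARE recycling, active zone partners, vesicle transporters, endocytosis and presynaptic calcium channels. None passed an adjusted p of 0.05 in limma, 0 were higher (against 4.99% of all tested genes) and 4 lower (6.78%, against 5.46%) at an unadjusted p under 0.05, and their median log2 fold change was 0.00. Snap29, a SNARE of endosomes and autophagosomes, measured 3.21, 3.13 and 3.27 in Control and 2.73, 2.80 and 2.74 in MA. This was a log2 fold change of -0.45 ± 0.09 (SE, limma adjusted p = 0.147), with every MA library below Control and MA replicate 3 between the other MA libraries. Doc2b, a calcium sensor for spontaneous release, measured 4.92, 4.68 and 4.69 in Control and 4.22, 4.47 and 4.22 in MA (log2 fold change -0.46 ± 0.11, SE, limma adjusted p = 0.238). The other 2 were Slc17a8, the vesicular glutamate transporter VGLUT3, at -0.31, and Picalm, a clathrin adaptor, at -0.23. Nsf, the ATPase that takes SNARE bundles apart, showed the split of the list above, with 7.53, 7.41 and 7.54 in Control and 7.86, 7.86 and 7.19 in MA. The split was seen in 14 of the 59 genes (23.7%, against 8.82% of all tested genes and 25.4% of the release machinery). Without MA replicate 3, 15 of the 59 were higher at an unadjusted p under 0.05 (25.4%, against 11.9%) and 6 lower (10.2%, against 11.4%), and 1, Nsf, had an adjusted p of 0.0456 in limma (1.69% of the genes, against 1.93%).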

How the data were processed

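RNA of the HIPP was sequenced in 3 Control and 3 MA mice. Per its methods, the study used Hisat2 for alignment and featureCounts for counting; the submitters' processing notes name Bowtie 0.12.2, mm8 and mm9, and the labels name other RNA and library kits (Qiagen, TruSeq) than the methods (RNA-Bee, NEB Next Ultra). The deposited log2 values were made by the authors from RPKM, per the table's name, after taking logarithms and matching the libraries to each other. No source describes these steps. The libraries share their highest value, 12.30, their medians run from 2.763 to 2.775, and identical values recur in different libraries. Quantile normalization, tried as an alternative, may therefore repeat a step already taken. The log base and an offset of 1 were inferred from the values, and read depth is unknown. Genes that reached 0.5 after back-transformation in 3 or more libraries were tested with limma 3.58.1 in R 4.3.3 (eBayes with a trend, two-sided, Benjamini-Hochberg adjustment over all tested genes), and the code was tested on simulated data. No source pairs mice that share a number, and their deviations correlated at -0.20, -0.24 and -0.34, so the replicate number was no block in the test. Named genes were the core fusion genes, those with an unadjusted p under 0.05, the extremes of fold change and of level in each class, and those that failed the filter; 2 tested genes that enter every count and median are not reported here by name or drawn. Genes, lists and markers were chosen with earlier results of these data known. Lengths and positions came from GENCODE (GRCm38) by gene identifier. Of the 71 genes, 39 overlap another annotated gene, and strand use in counting is not given in the sources used here. The limma p-values weigh the difference between the groups against the spread between libraries within a group, drawn toward the trend over all genes.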

Additional observations from a re-analysis of the deposited data

How the results depend on the processing

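The count of release machinery genes at an adjusted p under 0.05 (0) became 3 with sample quality weights (Sv2b, Syt17 and Vamp3; MA replicate 3 had the lowest weight, 0.194), 2 with length and GC correction without MA replicate 3, and 0 to 3 with 1 library left out. Genes higher at an unadjusted p under 0.05 (4) became 19 with weights, 2 with length and GC correction and the replicate block, 24 with that correction without MA replicate 3, and 0 to 24 with 1 library left out. Genes lower (1) became 3 with weights, 0 with the replicate block with or without the correction, 3 with the correction without MA replicate 3, and 0 to 3 with 1 library left out. Under the replicate block 3 genes were higher, Syt9, Unc13b and Vamp8. At an unadjusted p, shares of all tested genes stand above for the weights, the block, the correction without MA replicate 3, and MA replicate 3 left out. When another library was left out, or the correction joined with the block, no such share was computed. Those counts therefore lack a background. All tested genes called (35) became 586 with weights, 15 with the replicate block, 8 with the block and correction, 237 with the correction without MA replicate 3, 3 without a filter, 20 above a mean of 5, and 0 to 257 with 1 library left out. The median log2 fold change was -0.01 to 0.14 with 1 library left out. Signs turned for genes near 0, and also for Rab3c and Syp, at 0.17 and 0.108 with all libraries. Rab3c was -0.0348 without MA replicate 1. Syp was -0.145 without MA replicate 1 and -0.0694 without MA replicate 2. Rab3a was 0.0042 under quantile normalization and 0.0266 with the correction without MA replicate 3. Under that last setting Snap25 was 0.116, Syt11 0.162 and Syt14 0.0335. With weights Snap25 was 0.092, Syt11 0.128, Syt14 0.0619 and Unc13a 0.0144. With the correction, with or without the block, Snap25 was 0.0353. Syt10 was -0.00189 and -0.029 with pseudocounts of 0.1 and 0.01. Leaving out 1 library gave Cplx2 -0.0754 to 0.218, Pclo -0.0301 to 0.151, Rab3a -0.0198 to 0.0081, Rab3c -0.0348 to 0.532, Snap25 -0.104 to 0.101, Stx1a -0.0512 to 0.134, Sv2a -0.0858 to 0.19, Syn3 -0.0907 to 0.149, Syp -0.145 to 0.537, Syt1 -0.124 to 0.249, Syt10 -0.147 to 0.5, Syt11 -0.164 to 0.172, Syt14 -0.162 to 0.0549, Unc13a -0.0709 to 0.00992, Unc13d -0.166 to 0.0879 and Vamp2 -0.00258 to 0.176. The causes were not tested. With no read counts, the precision that depth gives is unknown.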
